A study of Homo sapiens with 35 samples.

Results

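Immediate-early genes are transcribed within minutes of a growth factor, antigen receptor, calcium or stress signal, without the need for new protein synthesis, and their transcripts are short-lived, so that their level follows the signal closely. Many are switched on by serum response factor and its ETS partners below the ERK kinase, which bind a sequence called the CArG box, and by CREB, which binds the cAMP response element TGACGTCA or a part of it, TGACG. Most of their products are transcription factors or feedback inhibitors that shape the later response, and in B cells the EGR and NR4A families are known for their induction by the antigen receptor. The 10 genes described here are immediate-early genes, chosen by name from the protein-coding entries of the count table with earlier results of these data known: the zinc finger transcription factors EGR1, EGR2 and EGR3, the orphan nuclear receptors NR4A1, NR4A2 and NR4A3, the early response genes IER2 and IER3, the MAP kinase phosphatase DUSP1 and the zinc finger factor KLF6. They were 10 of 19665 protein-coding entries, of which 17999 had a count in at least 1 library and were tested. A filter on low counts kept 12301 entries and 9 of the 10 genes, with EGR2 left out.

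The cells were RPMI-8226, an established human multiple myeloma line of malignant plasma cells, exposed for 1 h to carfilzomib at 750 nM. Carfilzomib is an irreversible proteasome inhibitor. The 35 RNA libraries were prepared from 5 subcultures at each of 7 time points (day 0, then days 1, 2, 4, 6, 8, 10), and none of them came from untreated cells of the later days. The study's methods place day 0 before carfilzomib, although its sample labels list the treatment as for all other days. By the study's methods, all subcultures came out of 1 parent culture, so that Q values measure the spread between subcultures. On day 0, before the pulse, the cells were set to a fixed density in fresh medium and left to equilibrate. Cells were put into fresh medium after the pulse. Medium was then replaced at a fixed interval, and samples of days 2 to 10 were taken just before a change. Time since fresh medium was thus about the same on days 2 to 10, but not on days 0 and 1. Cell density was adjusted again on days 6 and 8. In comparisons with day 0 or day 1, time since the pulse, time since fresh medium and density cannot be told apart. Among days 2 to 10, time since the pulse and density cannot be told apart. The library totals were 6519392 to 10962890 counts (median, 7643975). All 8 plasma cell markers examined were counted in every library, among them SDC1 at 210.0 to 362.0 CPM (read count scaled to library size). Among markers of other cell types, COL1A2 was at 0 in all 35 libraries, CD3D was at 0 in 32, and LYZ was at 0 in 28, whereas EPCAM (up to 95.7 CPM), KRT8 (9.78 to 43.1 CPM), MS4A1 (3.73 to 13.3 CPM) and CD3E (0.441 to 4.81 CPM) were counted in every library. Their part in the results was not tested.

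The start regions of EGR1, EGR2, NR4A3 and DUSP1 are shown because these windows hold the elements named above in different numbers. Whether the elements go with the size of the fall was not tested. Each sequence gives the bases directly upstream of a RefSeq transcript start (assembly GRCh38.p14), 5′ to 3′ on the strand of the gene, and capitals mark a CArG box, TGACGTCA, TGACG or its reverse complement CGTCA.
EGR1, chr5:138465229-138465478, plus strand: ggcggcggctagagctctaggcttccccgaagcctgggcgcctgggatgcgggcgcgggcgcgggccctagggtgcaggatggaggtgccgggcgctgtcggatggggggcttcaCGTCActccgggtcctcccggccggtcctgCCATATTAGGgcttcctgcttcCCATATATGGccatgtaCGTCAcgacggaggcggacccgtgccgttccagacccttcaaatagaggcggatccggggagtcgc
EGR2, chr10:62816367-62816616, minus strand: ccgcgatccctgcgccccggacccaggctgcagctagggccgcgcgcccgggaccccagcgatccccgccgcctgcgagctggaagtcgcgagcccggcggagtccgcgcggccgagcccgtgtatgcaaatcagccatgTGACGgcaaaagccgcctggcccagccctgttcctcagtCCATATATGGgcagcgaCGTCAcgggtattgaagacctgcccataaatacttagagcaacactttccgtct
NR4A3, chr9:99821635-99821884, plus strand: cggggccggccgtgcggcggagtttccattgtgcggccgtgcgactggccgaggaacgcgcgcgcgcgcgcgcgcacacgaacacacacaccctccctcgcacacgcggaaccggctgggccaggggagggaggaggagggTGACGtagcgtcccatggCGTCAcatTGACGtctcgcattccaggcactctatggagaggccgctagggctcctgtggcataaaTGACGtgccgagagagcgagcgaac
DUSP1, chr5:172771196-172771445, minus strand: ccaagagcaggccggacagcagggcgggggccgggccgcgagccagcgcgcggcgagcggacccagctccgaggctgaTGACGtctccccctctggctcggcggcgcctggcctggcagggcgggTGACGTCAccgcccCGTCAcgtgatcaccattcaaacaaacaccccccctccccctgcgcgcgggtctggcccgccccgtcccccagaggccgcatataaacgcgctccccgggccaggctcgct
The EGR1 window held 2 CArG boxes and 2 TGACG matches, and the EGR2 window held 1 CArG box and 2 TGACG matches. The NR4A3 window held 4 TGACG matches and no CArG box. The DUSP1 window held 1 TGACGTCA and 4 TGACG matches, 2 of which are the overlapping strands of the TGACGTCA. Among 35116 start windows of the same length in the RefSeq set, a CArG box was found in 1.16%, TGACGTCA in 1.65%, TGACG in 21.2% and an EGR site (GCGTGGGCG or GCGGGGGCG) in 5.37%, with both strands searched. Windows of 7 of the 10 genes were searched, and EGR2 and NR4A1 had several. EGR3 was left out of this search, and no window was found for NR4A2 and IER3. The IER2 window held 1 TGACG match, the KLF6 window held 1 EGR site, and both NR4A1 windows and the other EGR2 windows held none of these motifs. A match describes the letters of the window and not a bound site. In GENCODE release 44 (GRCh38), other genes of the set lie at chr12:52022832-52059507 (NR4A1, plus strand), chr2:156324437-156342348 (NR4A2, minus strand), chr19:13150411-13154911 (IER2, plus strand), chr6:30743199-30744548 (IER3, minus strand) and chr10:3775996-3785281 (KLF6, minus strand).

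All 10 genes were lower than on day 0 at some time after the pulse, and none was higher on any day at Q ≤ 0.05 (edgeR quasi-likelihood test, Benjamini-Hochberg adjustment over the 17999 entries), while 25.4%, 23.2%, 19.0%, 17.5%, 18.2% and 16.1% of all entries were higher on the 6 days in turn. On day 1 NR4A1, EGR1 and NR4A3 fell most among the genes still counted, EGR2 had no count, and IER2 and KLF6 fell least. At Q ≤ 0.05, 9 of the 10 were lower on day 1, and the following days gave 10, 10, 9, 9 and 9. The shares of all entries that were lower by this rule on the same 6 days were 27.3%, 24.4%, 20.1%, 17.0%, 18.6% and 15.8%. With a fold change above 2 in addition, the counts were 8 (13.2%), 10 (8.94%), 9 (5.29%), 7 (3.52%), 7 (4.58%) and 8 (3.52%). The median log2 fold change of the 10 genes against day 0 was −2.15, −2.74, −1.78, −1.44, −1.36 and −1.62 at the 6 time points, whereas the median over all entries was between −0.06 and 0.00. These comparisons share the day 0 libraries and are therefore not independent of each other. In bulk RNA, fewer cells with a transcript and less of it per cell cannot be told apart.

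**Figure D1:**
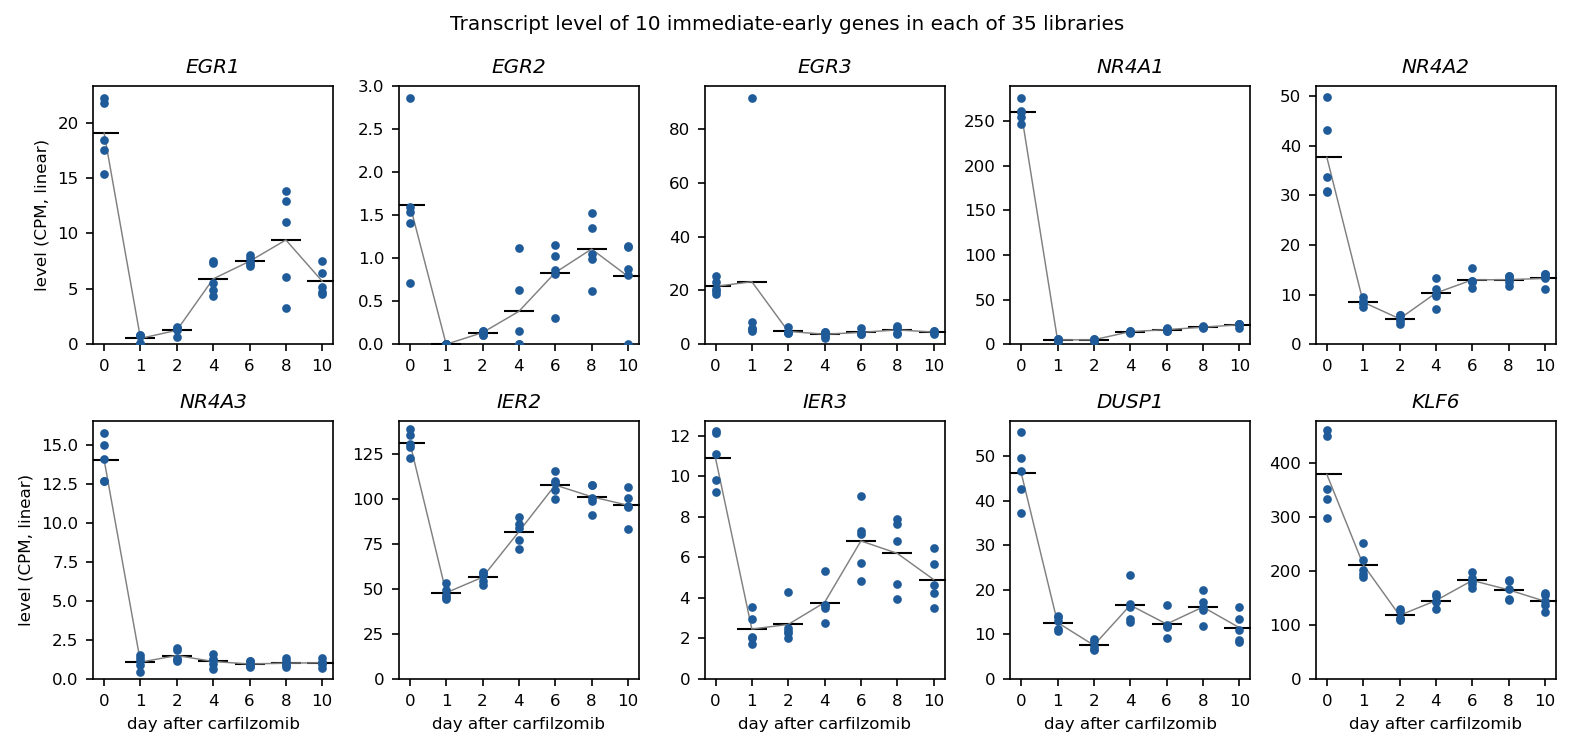
Level of each of the 10 genes in CPM on a linear axis (from 0, a separate scale for each gene) in the 5 libraries of each of 7 days; points are libraries, black bars are means, and days are evenly spaced. The points of day 1 lie below all points of day 0 in 9 panels, and the exception is EGR3, in which 1 library of day 1 lies at 91.6 CPM. How many of all entries show such a separation was not counted.

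The 3 NR4A genes encode nuclear receptors without a known physiological ligand, which act largely through their amount. NR4A1 (also called NUR77), which has been described in both apoptosis and restraint of B cell activation, was at 276.0, 262.0, 255.0, 260.0 and 247.0 CPM in the 5 libraries of day 0. On day 1 it was at 5.59, 5.51, 4.40, 3.77 and 5.07 CPM, based on 22 to 38 counts per library against 1281 to 1966 on day 0. The groups did not overlap, and the highest day 1 library was far below the lowest day 0 library. The mean fell from 260.0 ± 11 (SD, n = 5) to 4.87 ± 0.772 CPM (SD, n = 5), which is 1.87% of day 0 (log2 fold change −5.73, SE 0.08, edgeR Q = 5.544e-39). Day 2 was not distinguished from day 1 (log2 difference 0.05, SE 0.12, Q = 0.8775). NR4A1 then rose to 14.1 ± 0.920 CPM on day 4 (log2 difference from day 2 1.48, SE 0.10, Q = 2.543e-15). Thereafter the means were 16.4 ± 1.45, 19.1 ± 0.824 and 21.9 ± 1.96 CPM (days 6, 8 and 10), and no single step between consecutive days passed Q ≤ 0.05. Over longer spans the rise passed the test, with day 8 above day 4 (log2 difference 0.43, SE 0.08, Q = 0.0005842) and day 10 above both day 4 (0.63, SE 0.08, Q = 1.841e-07) and day 6 (0.42, SE 0.08, Q = 0.0002369). The day 10 libraries read 22.9, 22.7, 18.4, 22.6 and 22.9 CPM. Every one of them was above all libraries of day 1 and below all of day 0, at a mean of 8.43% of day 0 (log2 fold change −3.57, SE 0.07, Q = 8.018e-35).

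NR4A2 (NURR1), which is known for its role in dopaminergic neurons and is also induced in lymphocytes, was at 43.2, 30.9, 49.7, 33.7 and 30.6 CPM on day 0 and at 8.38, 9.44, 7.45, 8.40 and 8.62 CPM on day 1. No day 1 library reached the lowest day 0 library, and the spread was much wider on day 0 than on day 1. Its mean fell from 37.6 ± 8.45 to 8.46 ± 0.711 CPM (log2 fold change −2.15, SE 0.14, Q = 3.128e-17). It was lower again on day 2, at 5.13 ± 0.782 CPM (log2 difference from day 1 −0.72, SE 0.16, Q = 0.0003134). It rose to 10.3 ± 2.32 CPM on day 4 (log2 difference from day 2 1.00, SE 0.16, Q = 2.064e-06) and was at 13.0 ± 1.46, 13.0 ± 0.919 and 13.2 ± 1.24 CPM on days 6, 8 and 10. The day 10 mean was 35.2% of day 0 (log2 fold change −1.51, SE 0.13, Q = 1.658e-12).

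NR4A3 (NOR1) is the remaining receptor of the family. Its day 0 libraries were at 12.7, 12.7, 14.1, 15.0 and 15.8 CPM and its day 1 libraries at 0.882, 0.472, 1.35, 1.54 and 1.18 CPM, from 3 to 9 counts each. The groups were separated by a wide gap. The mean fell from 14.1 ± 1.39 to 1.09 ± 0.421 CPM (log2 fold change −3.68, SE 0.25, Q = 1.902e-16). Thereafter it was between 0.968 ± 0.184 CPM on day 6 and 1.51 ± 0.397 on day 2, and no comparison between any of the neighbouring levels passed Q ≤ 0.05. On day 10 it stood at 1.05 ± 0.241 CPM, 7.44% of day 0, and its difference from day 1 was −0.04 on the log2 scale (SE 0.31, Q = 1).

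Within each library, the ratio between family members removes the scaling between libraries, and its change tests whether the genes moved by unequal amounts. For these ratios, log2 CPM with a prior count of 2 was used, and an exact two-sided permutation test of 5 against 5 libraries was run for 10 changes, with Benjamini-Hochberg adjustment over the 10 and a smallest attainable p of 0.00794. From day 0 to day 1 the log2 ratio of NR4A2 to NR4A1 went from −2.81 ± 0.295 (SD, n = 5) to 0.77 ± 0.196, higher by 3.58 with all 5 libraries above all of day 0 (exact permutation p = 0.00794, adjusted p = 0.0132). By day 10 this ratio was −0.72 ± 0.231 and still above day 0 in all 5 libraries, by 2.09 (exact p = 0.00794, adjusted p = 0.0132). The ratio of NR4A3 to NR4A1 was higher by 2.24 on day 1 (exact p = 0.00794, adjusted p = 0.0132). The day 10 ratio differed from day 0 by 0.13, with 2 libraries above and 1 below all those of day 0 (exact permutation p = 0.405, adjusted p = 0.405), and the sign of this change turned with a smaller prior count. NR4A2 thus kept more of its day 0 level than NR4A1 on both days, and NR4A3 kept more than NR4A1 on day 1.

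**Figure D2:**
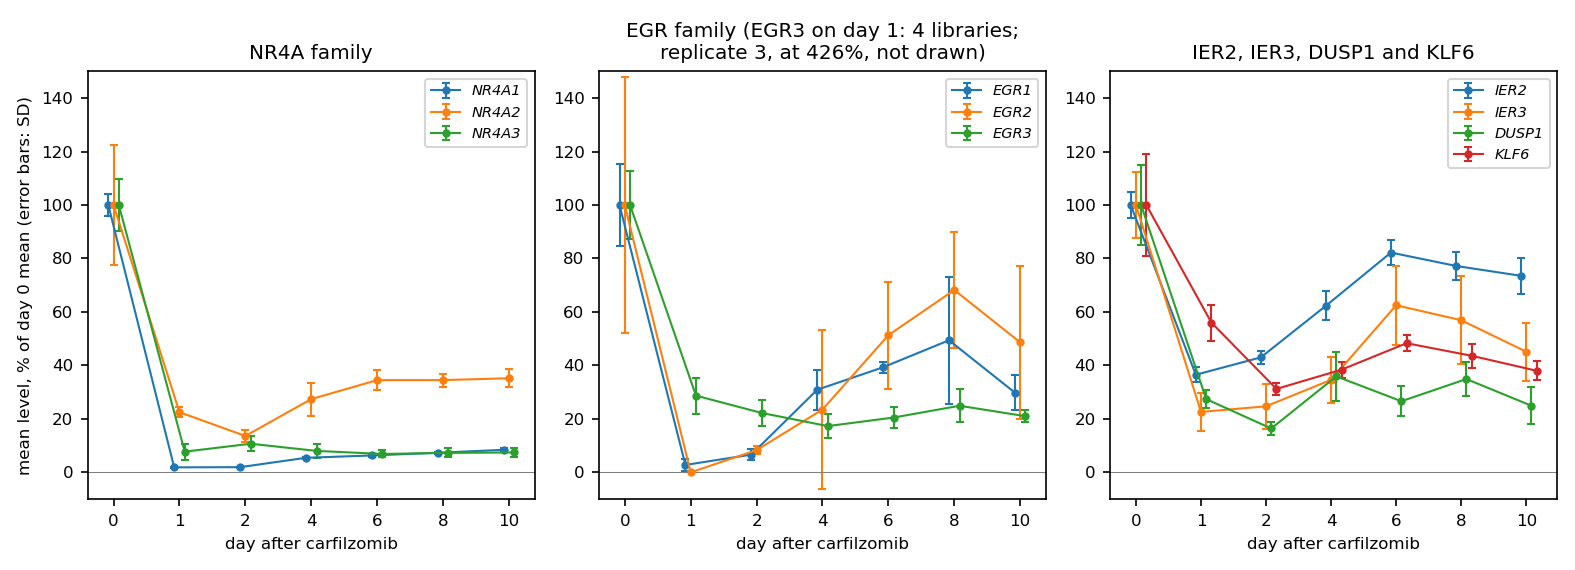
Mean level as % of the day 0 mean (linear axis) against day for the NR4A genes (left), the EGR genes (middle) and IER2, IER3, DUSP1 and KLF6 (right); error bars are SD of 5 libraries, and for EGR3 on day 1 of 4 libraries, with replicate 3 not drawn. NR4A2 lies at 35.2% on day 10, well above NR4A1 (8.43%) and NR4A3 (7.44%), and IER2 reaches 82.2% on day 6.

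EGR1, a zinc finger factor that links ERK signaling to transcription, nearly vanished on day 1 and then recovered in part. It was at 21.8, 22.2, 15.4, 18.4 and 17.5 CPM on day 0 (86 to 155 counts per library) and at 0.147, 0.787, 0.847, 0.858 and 0 CPM on day 1. No day 1 library held more than 5 counts, and the groups did not overlap. The mean fell from 19.1 ± 2.91 to 0.528 ± 0.419 CPM (log2 fold change −5.15, SE 0.36, Q = 3.886e-16). On day 2 it was at 1.26 ± 0.381 CPM, higher than on day 1 (log2 difference 1.27, SE 0.50, Q = 0.03838). This small rise rested on 49 counts over the 5 libraries of day 2 and 16 over those of day 1, and was lost in 6 of the 10 fits that left out 1 of these libraries. The larger rise came by day 4, when EGR1 reached 5.90 ± 1.43 CPM (log2 difference from day 2 2.19, SE 0.32, Q = 6.298e-07). The later means were 7.49 ± 0.406, 9.42 ± 4.55 and 5.68 ± 1.26 CPM (days 6, 8 and 10). Day 8 had the widest spread, with libraries at 11, 12.9, 3.31, 6.06 and 13.8 CPM, and among the means of days 4 to 10 no neighbours in rank were distinguished. On day 10 EGR1 was at 29.8% of day 0 (log2 fold change −1.74, SE 0.25, Q = 2.674e-07).

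EGR2 (KROX20), known for hindbrain and Schwann cell development and as a brake on lymphocyte activation, was the least counted of the 10 genes. It had 10, 18, 4, 8 and 8 counts on day 0, 48 in all, and no count in any of the 5 libraries of day 1. With 3 counts over the group taken as the limit that a count of 0 allows, EGR2 was at least 16.9-fold lower on day 1, and this limit covers counting error only. Each library of day 2 held exactly 1 count. Its mean was 1.62 ± 0.775 CPM before the pulse, 0.135 ± 0.0235 CPM on day 2 and 0.381 ± 0.486, 0.833 ± 0.324, 1.11 ± 0.353 and 0.790 ± 0.466 CPM at the 4 later times. From day 4 on its libraries overlapped those of day 0. The test against day 0 was passed on day 4 (Q = 0.006567) but not on day 6 (log2 fold change −0.94, SE 0.55, Q = 0.1992), day 8 (−0.57, SE 0.54, Q = 0.4422) or day 10 (−1.03, SE 0.56, Q = 0.1699). At these counts the SE does not allow a return to the day 0 level to be told from a persisting 2-fold deficit.

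EGR3, which shares its DNA binding domain with EGR1 and acts downstream of antigen receptors in lymphocytes, was decided on day 1 by a single library. Day 0 libraries were at 25.5, 23.2, 20.4, 19.8 and 18.7 CPM. Those of day 1 were at 5.59, 5.98, 91.6, 8.23 and 4.90 CPM, that is 38, 38, 541, 48 and 29 counts. Replicate 3 was 14.8 times the mean of the other 4 and 3.6 times the highest day 0 library, while the other 4 lay below every day 0 library. With all 5 libraries the mean of day 1 was 23.3 ± 38.2 CPM and the log2 fold change 0.10 (SE 0.42, Q = 0.9035). Without replicate 3 the mean was 6.18 ± 1.44 CPM (SD, n = 4), 3.48-fold below day 0, and the log2 fold change was −1.80 (Q = 6.845e-11).

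Replicate 3 of day 1 was not set apart in the other 9 genes, whose values in it lay among or near those of the other day 1 libraries. Over all entries, EGR3 and C1orf95 were the 2 whose level in this library was at least 8 times that in every other day 1 library with at least 50 counts. C1orf95, named after its values were seen, was at 249.0 CPM (1470 counts) in it and at 12 to 21.0 CPM in the other 4. Of the 35 libraries, 9 held at least 1 such entry and none held more than 2. The cause was not tested.

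**Figure D3:**
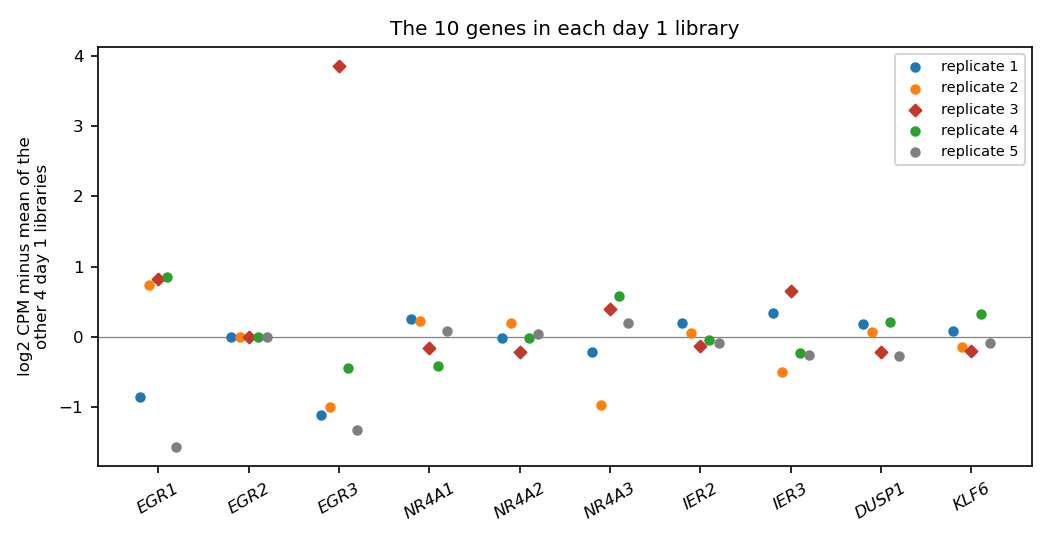
Deviation of each of the 5 day 1 libraries from the mean of the other 4 (log2 CPM with a prior count of 2, y axis) for each of the 10 genes; circles are replicates 1, 2, 4 and 5, and red diamonds are replicate 3. For EGR3 replicate 3 lies far above the rest, and for the other genes it lies among or next to them, with all EGR2 points at 0.

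After day 1, EGR3 stayed below day 0, and no 2 of its days from day 2 to day 10 that were neighbours in rank differed at Q ≤ 0.05. It was at 4.45, 6.54, 4.06, 4.63 and 4.25 CPM on day 2 and at 4.92, 4.40, 3.71, 4.89 and 4.65 CPM on day 10. All these libraries were below the lowest library of day 0. The 5 means from day 2 to day 10 were 4.78 ± 1.01, 3.72 ± 0.997, 4.41 ± 0.863, 5.35 ± 1.34 and 4.52 ± 0.495 CPM, between 17.3% and 24.9% of day 0. The log2 fold changes against day 0 were −2.16, −2.54, −2.29, −2.002 and −2.25 (largest Q = 0.0008376). The Q values of these days were smaller without replicate 3 of day 1 (between 8.829e-15 and 2.238e-12), while the fold changes moved by less than 0.01. The fall from day 1 to day 2 (log2 difference −2.26, Q = 0.0001468) was not kept without replicate 3 (−0.35, Q = 0.1799).

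The ratio of EGR3 to EGR1 was higher than on day 0 early and lower late. The log2 ratio of EGR3 to EGR1 was 0.18 ± 0.140 on day 0 and 3.90 ± 1.49 on day 1, higher by 3.73 in all 5 libraries (exact permutation p = 0.00794, adjusted p = 0.0132) and by 3.12 without replicate 3. EGR1 held at most 5 counts in a day 1 library, so the size of this change depends on the prior count (4.48 with a prior count of 0.5). By day 10 the ratio of EGR3 to EGR1 was −0.29 ± 0.308, below day 0 by 0.47 and in all 5 libraries (exact p = 0.00794, adjusted p = 0.0132). The ratio of EGR2 to EGR1 was higher by 2.16 on day 1 (exact p = 0.00794, adjusted p = 0.0132), but EGR2 was at 0 in all these libraries, so this value is set by the prior count. The change by day 10 was 0.80, with 4 libraries above and 1 below all those of day 0 (exact permutation p = 0.127, adjusted p = 0.141).

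IER2, a short early response gene whose product has been linked to FGF signaling and cell movement, fell to 36.5% of its day 0 mean on day 1 and later reached 82.2%, the highest share of day 0 among the 10 means after day 1. It was at 139.0, 123.0, 129.0, 136.0 and 131.0 CPM on day 0 and at 53.7, 49.6, 44.5, 46.8 and 45.6 CPM on day 1. The groups were far apart and each was tight. The mean fell from 132.0 ± 6.25 to 48.0 ± 3.65 CPM (log2 fold change −1.45, SE 0.07, Q = 7.92e-22). It rose at each step up to day 6, to 56.7 ± 3.18 CPM on day 2 (Q = 0.005117), 82.0 ± 7.06 on day 4 (Q = 1.998e-08) and 108.0 ± 6.07 on day 6. The libraries of day 6, the highest of them at 116.0 CPM, were still below every library of day 0 (82.2% of day 0, log2 fold change −0.28, SE 0.06, Q = 0.0003022). Days 8 and 10 were at 102.0 ± 7.07 and 96.9 ± 8.80 CPM and not distinguished from day 6 or from each other as neighbours in rank.

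IER3 (IEX-1), a target of NF-κB and p53 that modulates apoptosis and ERK signaling, was at 12.2, 12.1, 11.1, 9.82 and 9.24 CPM on day 0 and at 2.94, 1.73, 3.56, 2.06 and 2.03 CPM on day 1, with no overlap. The log2 fold change was −2.14 on day 1 (SE 0.24, Q = 2.61e-10), −0.68 on day 6 (SE 0.21, Q = 0.008545) and −1.15 on day 10 (SE 0.22, Q = 4.042e-05). The mean was 10.9 ± 1.33 CPM before the pulse and 2.46 ± 0.760 on day 1, and then 2.69 ± 0.923, 3.77 ± 0.937, 6.81 ± 1.60, 6.19 ± 1.79 and 4.91 ± 1.17 CPM at the 5 later times. When the days were ranked by level, days 6 and 0 were the only neighbours that differed at Q ≤ 0.05, and day 6 was above day 4, which did not neighbour it in rank (log2 difference 0.84, SE 0.23, Q = 0.00979). The log2 ratio of IER3 to IER2 was lower than on day 0 by 0.60 on day 1 and by 0.68 on day 10, each with 4 of 5 libraries below all those of day 0 (exact permutation p = 0.0238, adjusted p = 0.0298 for both). On each day this call was lost in 7 of the 10 tests that left out 1 library.

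DUSP1 (MKP-1), a nuclear phosphatase that inactivates p38, JNK and ERK, was at 55.4, 37.1, 49.5, 46.5 and 42.5 CPM on day 0, at 14, 13.1, 11.2, 14.2 and 10.8 CPM on day 1 and at 8.47, 6.65, 6.42, 8.95 and 7.39 CPM on day 2. Each of these groups lay wholly below the one before. The mean fell from 46.2 ± 6.92 to 12.7 ± 1.58 CPM on day 1 (log2 fold change −1.87, SE 0.16, Q = 1.572e-13) and to 7.58 ± 1.11 CPM on day 2 (log2 difference from day 1 −0.75, SE 0.18, Q = 0.0006548). It rose to 16.6 ± 4.22 CPM on day 4 (log2 difference from day 2 1.14, SE 0.17, Q = 1.272e-06) and was at 12.3 ± 2.64, 16.1 ± 2.86 and 11.5 ± 3.22 CPM on days 6, 8 and 10. No single step after day 4 passed the threshold, but day 10 was lower than day 4 (log2 difference −0.52, SE 0.17, Q = 0.03526). Day 10 stood at 24.9% of day 0 (log2 fold change −2.0025, SE 0.16, Q = 1.655e-13).

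KLF6, a Krüppel-like factor with growth-restraining functions that is induced in many tissues under stress, was at 461.0, 352.0, 451.0, 333.0 and 299.0 CPM on day 0 and at 221.0, 195.0, 189.0, 253.0 and 202.0 CPM on day 1. The highest day 1 library was below the lowest day 0 library. The fall on day 1 was the smallest among the genes that passed the test (log2 fold change −0.84, SE 0.09, Q = 1.129e-10). Its lowest level came on day 2, at 118.0 ± 9.09 CPM (log2 difference from day 1 −0.85, SE 0.09, Q = 3.932e-10). It rose to 146.0 ± 11.3 CPM on day 4 (Q = 0.01074) and to 183.0 ± 11.4 CPM on day 6 (Q = 0.01297), and was at 165.0 ± 17.1 and 144.0 ± 13.8 CPM on days 8 and 10. Day 10 was lower than day 6 (log2 difference −0.34, SE 0.09, Q = 0.01115). On day 10 it was at 38.0% of day 0 (log2 fold change −1.40, SE 0.09, Q = 6.698e-16).

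**Figure D4:**
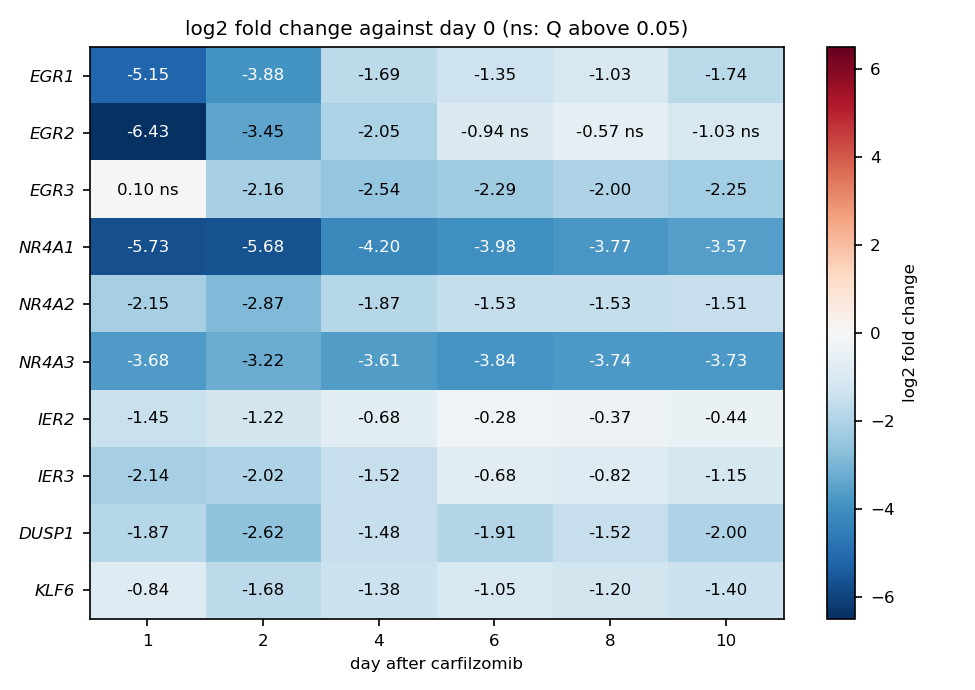
Log2 fold change against day 0 (edgeR; color scale and printed value) for each of the 10 genes (rows) on days 1, 2, 4, 6, 8 and 10 (columns); "ns" marks Q above 0.05. All called cells are negative, NR4A1 and NR4A3 stay below −3 on every day, and the values of EGR2 on day 1 (all libraries at 0) and of EGR3 on day 1 (1 high library) are not estimates of size.

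The genes were thus not lowest on the same day. Between day 1 and day 2, 4 of the 10 were lower at Q ≤ 0.05 (19.4% of all entries were lower), namely NR4A2, DUSP1, KLF6 and EGR3, the last through its single high library, and 2 were higher (20.2%), namely EGR1 and IER2. Only EGR3 among the lower (3.49% of all entries) and EGR1 among the higher (6.79%) changed more than 2-fold. From day 2 to day 4, 6 of 10 rose (13.9% of all entries), EGR1, NR4A1, NR4A2, DUSP1, IER2 and KLF6, of which EGR1, NR4A1 and DUSP1 by more than 2-fold (2.08%). From day 4 to day 6, 3 of 10 rose (6.09%), IER3 by 0.84, IER2 by 0.40 and KLF6 by 0.33 on the log2 scale, and 0 of 10 against 0.628% of all entries changed more than 2-fold (DESeq2, 3 and 0; 6 at an unadjusted p under 0.05). Between day 6 and day 8 edgeR called 0 of 10 against 2.56% of all entries, with 2 of the genes at an unadjusted p under 0.05 and 0 by DESeq2. From day 8 to day 10 edgeR again called 0, against 10.1% of all entries, with 4 of the genes at an unadjusted p under 0.05 and 2 by DESeq2. All these shares are those of edgeR at Q ≤ 0.05. Shares of all entries at an unadjusted p or by DESeq2 were not counted.

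Across the 35 libraries the levels of the genes followed each other to unequal degrees. Pearson's r of log2 CPM between pairs of the 9 genes that passed the low-count filter ran from 0.114 (IER2 and EGR3) to 0.937 (NR4A2 and NR4A1). The points share the day 0 libraries and the fall after them, and once the mean of each day was subtracted r lay between −0.425 and 0.424. By the same measure over 35 libraries, the entries most like NR4A1 included ANXA1 (r = 0.96, rho = 0.91) and VPS37B (r = 0.96, rho = 0.82), and those most like KLF6 were NFKBIA (r = 0.94, rho = 0.88), RNF19B (r = 0.94, rho = 0.88) and FCRLA (r = 0.93, rho = 0.83). EGR1 was most like ZFAND1, LMF1 and CECR1 (r = 0.94 each, rho = 0.82, 0.91 and 0.87). DUSP1 was most like ORMDL3 (r = 0.91, rho = 0.75), RAP2B (r = 0.90, rho = 0.70) and G0S2 (r = 0.90, rho = 0.65).

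The close relatives and partners did not move as a group. EGR4, the remaining member of the EGR family, had 37 counts over the day 0 libraries and 0 on days 1 and 2, at least 13.0-fold and at least 16.1-fold lower with 3 counts over the group as the limit. Its 5 libraries of day 10 held 2 counts, which put day 0 above it by a ratio of 20.1 (95% exact counting interval, 5.18 to 172.0). NAB1 and NAB2 bind EGR factors and repress them. NAB1 was slightly higher on day 1 (18.3 ± 1.54 to 21.8 ± 2.36 CPM, log2 fold change 0.24, SE 0.10, Q = 0.03922) and on day 10 (23.3 ± 0.871 CPM, 0.34, SE 0.10, Q = 0.006319). NAB2, itself an EGR1 target, fell from 7.98 ± 0.988 CPM to 5.51 ± 1.33 on day 1 (Q = 0.009666) and 4.33 ± 0.940 on day 2 (Q = 5.147e-05), and its day 10 level of 7.46 ± 0.542 CPM did not pass the test (log2 fold change −0.09, SE 0.17, Q = 0.7516). RXRA and RXRB are heterodimer partners of NR4A1 and NR4A2. RXRG had no count in any library, RXRA passed the test on no day, and RXRB was at 59.6 ± 7.15 CPM on day 0 and higher at 72.3 ± 6.43 on day 10 (log2 fold change 0.28, SE 0.08, Q = 0.003937).

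Other immediate-early genes were counted in lists chosen with earlier results of these data known. All 7 FOS and JUN genes, the subunits of AP-1, were lower at Q ≤ 0.05 on each of the 6 days, while 15.8% to 27.3% of all entries were lower. On day 1 they ranged from FOSB, which fell by 6.78 on the log2 scale (SE 0.24, Q = 7.861e-26; 73.5 ± 5.86 to 0.646 ± 0.340 CPM), to JUN, which fell by 0.93 (SE 0.13, Q = 6.606e-08). Of 34 further immediate-early genes, 26 fell and 3 rose by day 1, and 27 were lower against 3 higher by day 10, with median log2 fold changes of −1.30 and −1.01. The shares of all entries were 27.3% lower and 25.4% higher on day 1, and 15.8% and 16.1% on day 10. KLF4, a pluripotency and growth-arrest factor, had the lowest fitted value on day 1, but with no count on that day its fall is known only as a bound (at least 7.39-fold lower) and does not fix its place in the list. GADD45G, a stress sensor at a low level (0.42 ± 0.187 CPM on day 0, 1.53 ± 0.707 on day 1), had the highest value (log2 fold change 1.83, SE 0.65, Q = 0.01654). On day 10 the same held for CYR61, a secreted matrix protein with no count (at least 3.98-fold lower), and KLF2, a quiescence factor of lymphocytes, was higher (log2 fold change 0.64, SE 0.15, Q = 0.0006472).

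The genes that act above and below ERK were divided between directions. Among 14 MAP kinase phosphatase and Sprouty genes, which are feedback inhibitors, 7 were lower and 3 higher on day 1 and again on day 10, and the medians were −0.34 and −0.25. DUSP8, a phosphatase of JNK and p38, fell by 2.96 on day 1 (SE 0.18, Q = 8.755e-18), DUSP4 fell by 2.04 on day 10 (SE 0.07, Q = 6.091e-25), and SPRY4, an inhibitor of receptor tyrosine kinase signaling, was higher on both days (log2 fold change 1.04, SE 0.40, Q = 0.02761 and 1.53, SE 0.39, Q = 0.001816). Among 21 kinases and factors upstream of immediate-early transcription, 10 rose and 7 fell by day 1, whereas by day 10 the same rule gave 4 and 7, and the medians were 0.10 and −0.02. RPS6KA2, a ribosomal S6 kinase activated by ERK, fell by 1.74 on day 1 (SE 0.06, Q = 2.458e-27), and CREM, which encodes activators and the repressor ICER, rose by 1.60 (SE 0.23, Q = 1.1e-07; 6.83 ± 1.27 to 20.7 ± 3.34 CPM). On day 10 SRF, the factor that binds the CArG box, was the lowest of the list (76.6 ± 6.06 to 42.3 ± 5.30 CPM, log2 fold change −0.85, SE 0.07, Q = 1.695e-12) and CREB1 the highest (28.7 ± 1.89 to 46.0 ± 2.04 CPM, 0.67, SE 0.09, Q = 8.258e-08). Of all entries, 27.3% fell and 25.4% rose by day 1, and 15.8% and 16.1% were lower and higher by day 10.

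**Figure D5:**
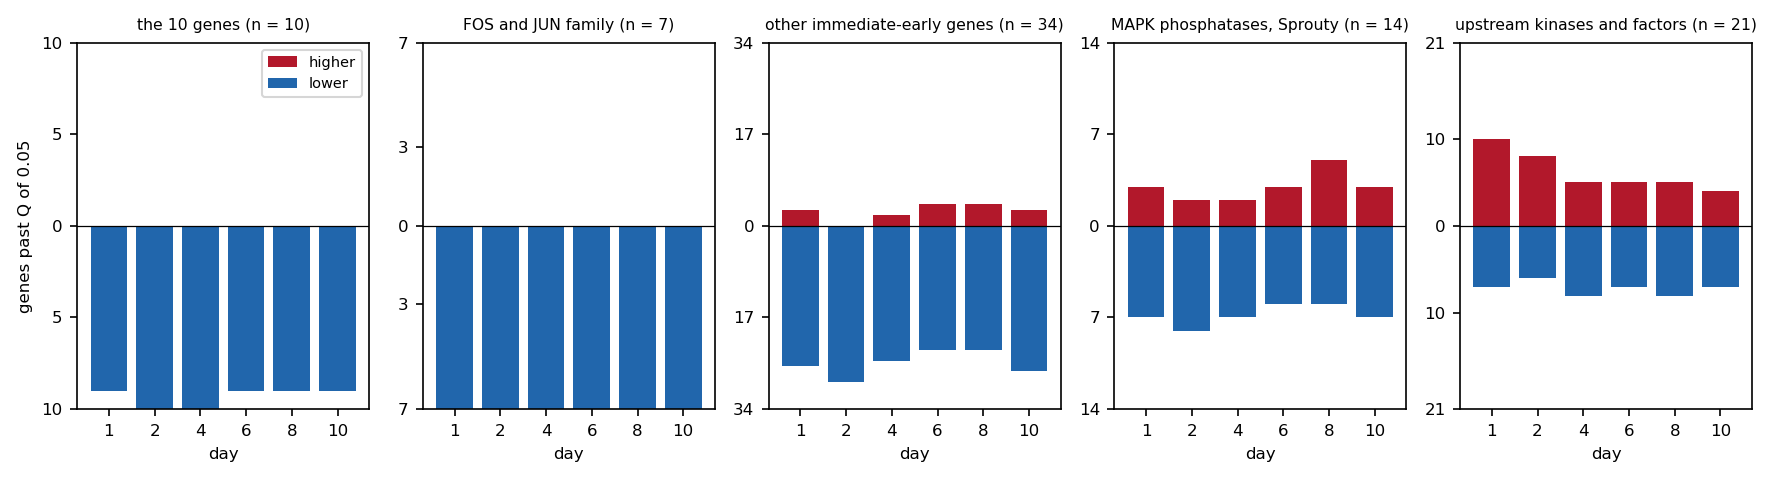
Number of genes higher (red, upward) and lower (blue, downward) than on day 0 at Q ≤ 0.05 at the 6 times after the pulse for the 10 genes and 4 lists, each on an axis that ends at the number of genes in the list. The FOS and JUN bars reach all 7 genes downward on every day, and the upstream list has bars in both directions (10 higher and 7 lower on day 1). Of all entries, which are not drawn, 25.4% were higher and 27.3% lower on day 1.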

How the data were processed

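RNA of RPMI-8226 cells was sequenced in 35 libraries, and every sample was placed on its day by its label. The authors deposited estimated counts per gene symbol and transcript biotype, made by kallisto 0.44.0 pseudoalignment to GENCODE transcripts (GRCh38.p12) and summed over transcripts with tximport with length adjustment; the deposited values are whole numbers, not scaled for depth, and were used as given. Pseudoalignment splits reads shared between related transcripts, libraries were directional, and the strand setting of kallisto was not given in the sources used here. Counts of all 17999 protein-coding entries were fitted with edgeR 4.0.16 (TMM factors 0.929 to 1.08, glmQLFit and glmQLFTest, day as factor) in R 4.3.3, and Q is the Benjamini-Hochberg adjusted p over all of them. Calls needed Q ≤ 0.05 and, where stated, a fold change beyond 2 either way. CPM uses the same factors. Alternatives were RLE factors, no factors, a low-count filter, a replicate block, the compared days alone, DESeq2 1.42.0, other fold cutoffs and each library left out. All 10 genes were named in every comparison, with the highest and lowest called member of each other list on days 1 and 10, every partner or paralog, for EGR1, NR4A1, DUSP1 and KLF6 the 3 filtered entries with the highest Pearson's r of log2 CPM, and other transcript biotypes of the 10 genes with at least 50 counts. Some entries that these rules name are not reported here. Members and lists were chosen with earlier results of these data known. The tests were checked on simulated data. Promoter windows are from RefSeq.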

Additional observations from a re-analysis of the deposited data

Results flagged for a closer look

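In 70 groups of 5 libraries (10 genes on 7 days), 7 groups in 6 genes had a highest or lowest library that passed Dixon's 95% limit. The measure is the gap of that library to its nearest neighbour as a part of the whole range. Gaps and ranges were taken in log2 CPM with a prior count of 2, not in the CPM printed beside them. Chance passes about 1 in 20 groups. EGR2 on day 1, at 0 in every library, has no range and could not be flagged. EGR3 on day 1 had the flagged library with the most counts above its group, replicate 3, with 541 counts, 91.6 CPM and a gap of 0.828 of the range. EGR3 on day 2 was high in replicate 2 (6.54 CPM, gap 0.727), and IER3 on day 2 was high in replicate 1 (4.31 CPM, gap 0.71). EGR1 on day 2 was low in replicate 4, with 4 counts (0.617 CPM, gap 0.739), and EGR2 on day 10 was low in replicate 4, with 0 counts (gap 0.83). NR4A1 on day 10 was low in replicate 3, at 18.4 CPM (gap 0.936), and NR4A2 on day 10 was low in replicate 5, at 11.1 CPM (gap 0.788). EGR1 and EGR2 rest on few counts here, and the causes were not tested.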

How the results depend on the processing

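Of 998 alternative values of single genes against day 0, 996 kept direction and side of Q ≤ 0.05, and 2 reversed, both for EGR3 on day 1, which was −0.34 with a replicate block and −1.80 without day 1 replicate 3 (range with 1 library left out, −1.80 to 0.35). With a log2 cutoff of 2 in place of 1, the calls against day 0 numbered 4, 3, 3 and 4 on days 4, 6, 8 and 10, and 1 between days 1 and 2 and 1 between days 2 and 4. With no fold cutoff they numbered 6, 6 and 3 between days 1 and 2, days 2 and 4 and days 4 and 6. Between days 1 and 2 the compared days alone gave 1 call (EGR1 was lost) and DESeq2 1 (EGR3 had no adjusted p; DESeq2 gave it none against day 0 either). With a prior count of 0.5 the change of EGR2 to EGR1 on day 1 was 1.15 and past the threshold no longer, since EGR2 was at 0, and that of NR4A3 to NR4A1 on day 10 was −0.11.

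With 1 library left out, calls against day 0 ranged from 8 to 9 on day 1, 10 to 10 on day 2, 9 to 9 on day 4, 6 to 7 on days 6 and 8 and 8 to 8 on day 10, and between consecutive days from 1 to 2, 2 to 4, and 0 to 0 for the last 3 pairs. The EGR1 rise from day 1 to day 2 was lost without replicate 1 (1.01, Q = 0.1232) or 5 of day 1 (0.97, Q = 0.1197) or replicate 1, 2, 3 or 5 of day 2. Ratio changes on day 1 and day 10 ranged from 1.85 to 2.33 and 0.58 to 1.19 for EGR2 to EGR1, the latter passing without day 10 replicate 4 (1.19), from 3.12 to 4.07 and −0.56 to −0.36 for EGR3 to EGR1, from 3.49 to 3.69 and 2.01 to 2.20 for NR4A2 to NR4A1, and from 2.04 to 2.48 and 0.06 to 0.25 for NR4A3 to NR4A1. For IER3 to IER2 they ranged from −0.75 to −0.49 and −0.83 to −0.56, and the call was lost in 7 of 10 settings on each day.

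Same-numbered libraries of different days deviated together little (r from −0.123 to 0.136, median 0.001, 1 of 105 pairs over 0.1). For different numbers the median r was −0.001. However, 14 of 35 libraries were closest to their own number, more than an even spread over the 5 numbers would give, and this excess was not tested. The numbers were not taken as pairs, and the replicate block gave the same counts as the fit without it (8, 10, 9, 7, 7 and 8 against day 0). Without scaling factors, the median of filtered entries shifted by 0.05 to 0.13 on the log2 scale, most on day 2. Depth limited EGR2 most, with 48 counts on day 0 and 0 on day 1.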

Other observations

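Some of the genes also have entries for transcripts that encode no full protein, which were not tested. The retained-intron entry of NR4A1 summed to 617 counts over the 5 libraries of day 0 and to 22 and 81 over those of days 1 and 10, so that it fell together with the coding entry. Its share of the counts of both kinds was 7.30% ± 2.07, 13.1% ± 7.93 and 10.6% ± 1.84 (SD, n = 5) on these days in turn. The nonsense-mediated decay entry of NR4A2 went from 161 counts in all to 35 on day 1 and 5 on day 4, and had 44 in the last libraries. The processed transcript entry of KLF6 went from 219 counts to 148 on day 1, 32 on day 6 and 65 in the last libraries, and its share was 1.86% ± 0.499 on day 0 and 0.514% ± 0.133 on day 6. Estimated counts of isoforms of a gene share reads, and a split between them is therefore uncertain.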
